A study of Mus musculus with 13 samples.

Results

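Interferon-inducible GTPases of the Gbp and Irg families were examined in mouse embryonic stem (ES) cells carrying a doxycycline (dox)-inducible CTCF transgene. The 8 genes are Gbp2b, Gbp2, Gbp3, Gbp6, Gbp7, Irgm1, Igtp and Iigp1, of 24421 genes in both deposited count tables, and each was found by its symbol in both tables. They were chosen by their counts in these same libraries, in an earlier comparison of +dox with −dox cells, so their difference between +dox and −dox is given here as a description. Where calls or intervals of these 8 genes are printed, they support nothing. Of the 8 genes, 6 had at least 20 reads over the 4 libraries and 2, Gbp6 and Iigp1, had at most 6.

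The libraries hold polyadenylated RNA of F1-2.1, a female ES cell line of CAST/Ei x 129/Sv/Jae background with the genotype Tet-on CTCF S224E, in which dox turns on a CTCF whose serine at the site named by the allele is replaced by glutamate. All libraries came from 1 clone, A2, grown over γ-irradiated mouse embryonic fibroblast (MEF) feeders with LIF. The +dox group received 1 μg/mL dox for 6 days (2 libraries, replicates 1 and 2), and the −dox group carried the same transgene and received none (2 libraries, replicates 1 and 2), each pair described as biological replicates. RNA from cells given dox without the S224E transgene was not analysed here, so dox and S224E cannot be told apart. Counted reads per library ran from 22899107 to 30206085, and levels are given in CPM, the reads of a gene after TMM scaling to library size.

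Guanylate-binding proteins (GBPs) and immunity-related GTPases (IRGs) are large GTPases that cells make in response to interferon, above all interferon-γ. They gather on the membranes of intracellular bacteria and parasites and help to break those membranes open, a form of defence that acts inside the infected cell itself. Among the IRGs, Irgm1, Igtp (also called Irgm3) and Irgm2 are regulators that guard the cell's own membranes and hold effectors such as Iigp1 in check, and Gbp2 and Gbp7 are among the GBPs studied in defence against Toxoplasma gondii. Promoters of interferon-induced genes are known to carry the gamma-activated site (GAS) and the interferon-stimulated response element (ISRE), the latter bound by interferon regulatory factors.

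In the mm9 coordinates of the counts, 4 of the 8 genes lie in a single array on the plus strand of chromosome 3. Gbp7 occupies chr3:142193300-142213115, Gbp3 chr3:142223460-142236176, Gbp2b chr3:142257811-142282140 and Gbp2 chr3:142283627-142300972, and with Gbp5 this array spans 141075 bp. Gbp6 lies in the other Gbp array, on the minus strand at chr5:105699721-105722718. Irgm1 lies at chr11:48678751-48684848 on the minus strand, and Igtp at chr11:58013058-58021094 on the plus strand, next to Irgm2. In the gencode annotation of that build no exon of these 7 genes overlapped an exon of another gene.

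Promoter sequences of RefSeq (GRCm38.p6), from 250 bases before to 50 after the start, were matched by symbol to 6 of the 8 genes, Gbp2b, Gbp2, Gbp3, Gbp7, Irgm1 and Igtp. Both strands were searched for GAAANNGAAA, the core of the ISRE, and for TTCNNNGAA, the GAS pattern. All 6 genes held the ISRE-like letters, against 3.44% of 32851 promoters and 3.99% of 27025 genes in the same table. The GAS-like letters were in 2 of the 6, Gbp7 and Igtp, against 8.3% of all promoters. The windows are shown from 150 bases before to 20 bases after the start, because these 6 genes are the ones whose reads carry the values below. Capitals mark the motif matches, and TTTCNNTTTC is the ISRE-like pattern read from the other strand.
Gbp2b (chr3:142594697-142594866, plus strand): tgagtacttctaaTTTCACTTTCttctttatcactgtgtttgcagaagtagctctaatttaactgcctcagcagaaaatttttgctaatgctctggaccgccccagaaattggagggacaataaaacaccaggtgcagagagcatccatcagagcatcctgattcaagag
Gbp2 (chr3:142620513-142620682, plus strand): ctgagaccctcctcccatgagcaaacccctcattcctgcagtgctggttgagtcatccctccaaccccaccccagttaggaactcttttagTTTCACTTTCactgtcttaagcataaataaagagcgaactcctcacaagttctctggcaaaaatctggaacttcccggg
Gbp3 (chr3:142559894-142560063, plus strand): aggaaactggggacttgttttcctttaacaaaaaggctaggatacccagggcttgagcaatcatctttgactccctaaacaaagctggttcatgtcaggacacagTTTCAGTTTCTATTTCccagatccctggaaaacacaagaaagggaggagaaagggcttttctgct
Gbp7 (chr3:142530186-142530355, plus strand): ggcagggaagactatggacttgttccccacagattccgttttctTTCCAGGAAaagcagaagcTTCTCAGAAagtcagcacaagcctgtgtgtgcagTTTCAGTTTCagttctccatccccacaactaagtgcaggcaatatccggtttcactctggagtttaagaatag
Irgm1 (chr11:48871401-48871570, minus strand): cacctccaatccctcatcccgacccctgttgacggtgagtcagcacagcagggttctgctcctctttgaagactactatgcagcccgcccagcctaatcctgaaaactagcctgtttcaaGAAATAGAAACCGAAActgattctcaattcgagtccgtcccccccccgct
Igtp (chr11:58199406-58199575, plus strand): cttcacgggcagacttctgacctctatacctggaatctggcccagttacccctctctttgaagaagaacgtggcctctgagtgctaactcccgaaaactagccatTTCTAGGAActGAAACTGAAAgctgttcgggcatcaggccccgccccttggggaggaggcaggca

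The ISRE-like match began at position -137 in Gbp2b, further from the start than in the other 5 genes, where matches began between -59 and -24. Gbp3 and Irgm1 each held a pair of overlapping matches, at -45 and -39 in Gbp3 and at -30 and -24 in Irgm1. These stand in capitals as 1 longer run. The GAS-like matches began at -106 and -87 in Gbp7 and at -45 in Igtp, there a few bases before the ISRE-like match at -34. A second annotated start of Gbp3 (start 2) held neither pattern. A match describes letters in the window and not the binding of a factor.

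**Figure D1:**
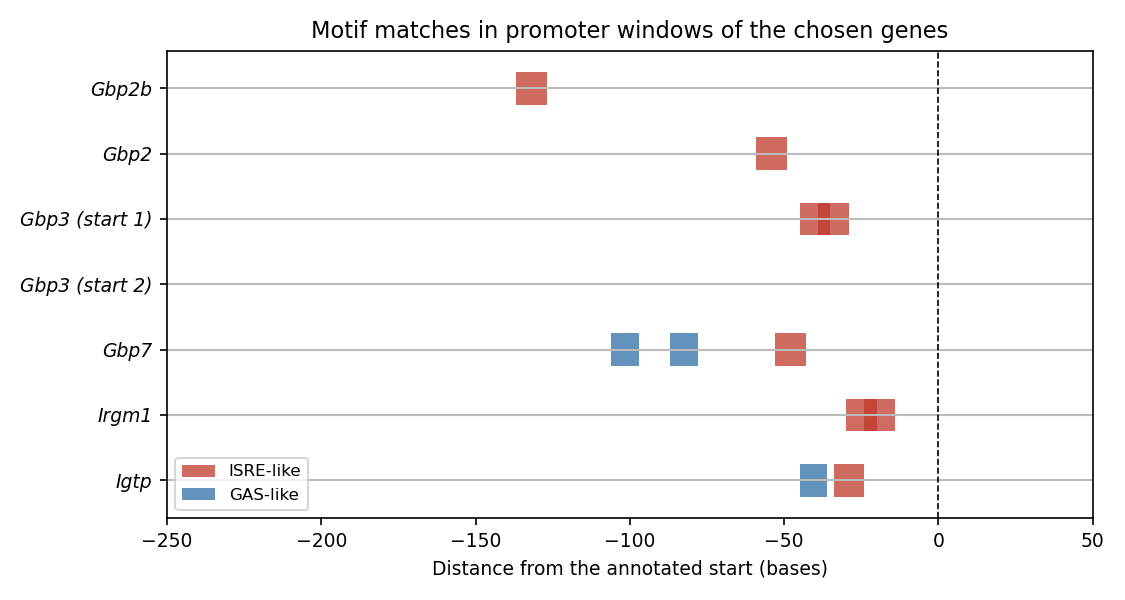
Positions of ISRE-like (red) and GAS-like (blue) letters, on either strand, in the promoter windows of 6 of the 8 genes, with distance from the annotated start in bases on the horizontal axis and 1 line per start. Each gene has an ISRE-like match, 5 of them within 60 bases before the start, and Gbp7 and Igtp also have GAS-like matches.

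Levels were first compared between the genes in −dox cells, per kilobase of counted exon (CPM per kb), where the order runs from the regulator Irgm1 down to Gbp6. Irgm1 had 7.05 ± 0.965 CPM per kb (SD, n = 2) and Gbp2 5.31 ± 1.70 (SD, n = 2), and the replicates of these neighbours overlapped. Gbp2b followed with 2.18 ± 0.592, Igtp with 1.74 ± 0.0268 and Gbp3 with 1.17 ± 0.204 CPM per kb (SD, n = 2 each). The lower Gbp2b replicate, at 1.76, was only just above the higher Igtp replicate, also at 1.76 when rounded. Gbp7 stood at 0.288 ± 0.135 CPM per kb (SD, n = 2), and Iigp1 and Gbp6 at 0.0221 and 0.0038.

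With dox the order of the per-kb levels was different. Irgm1 remained highest at 4.48 ± 2.21 CPM per kb (SD, n = 2), followed by Gbp2 at 1.11 ± 0.407 and Igtp at 0.645 ± 0.00896. Gbp2b stood at 0.244 ± 0.125, below Gbp3 at 0.317 ± 0.134 CPM per kb (SD, n = 2 each), and the replicates of these 2 genes overlapped. By the means Gbp2b went from the third place to the fifth, and its place below Gbp3 lies within the spread of the replicates.

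Gbp2b, a GBP of the chromosome 3 array, had 0.933 and 0.438 CPM in +dox replicates 1 and 2 and 4.94 and 7.29 CPM in −dox replicates 1 and 2, from 21, 10, 151 and 183 reads. Both +dox libraries were below both −dox libraries. Its log2 fold change of −3.15 (standard error 0.37), an 8.86-fold lower level with dox, ranked 5 from the bottom among 13911 genes averaging 1 CPM or more. Replicate 1 had a log2 change of −2.31 and replicate 2 of −3.83.

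Gbp2 had 3.42 and 2.01 CPM with dox and 10.0 and 15.9 CPM without, from 77, 46, 306 and 399 reads. The groups did not overlap, and the level was 4.76-fold lower with dox (log2 fold change −2.25, standard error 0.30), rank 21 of the same genes. Gbp2 lies next to Gbp2b, and 2.07% of the 50-nt windows of its longest gencode transcript also occur in Gbp2b. A single read of that length cannot be placed uniquely there. Per the paper the reads were paired, and a mate outside such a window was not considered.

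Gbp3 had 1.07 and 0.613 CPM with dox and 2.65 and 3.63 CPM without, from 24, 14, 81 and 91 reads. Again both +dox libraries were below both −dox libraries, and the fitted level was 3.72-fold lower (log2 fold change −1.89, standard error 0.36). The tables counted Gbp3 on a transcript of 2589 nt in replicate 1 and of 2763 nt in replicate 2, so its +dox and −dox values share a transcript within a replicate but not across replicates.

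Gbp7 had the fewest reads of the 6 genes, with 14 and 6 with dox and 33 and 54 without. That was 0.622 and 0.263 CPM with dox against 1.08 and 2.15 CPM without, and the groups did not overlap. Its level was 3.60-fold lower with dox (log2 fold change −1.85), with a larger standard error of 0.51 and with −0.73 in replicate 1 against −2.71 in replicate 2.

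Igtp, a regulatory IRG, had 1.29 and 1.31 CPM with dox and 3.47 and 3.55 CPM without, from 29, 30, 106 and 89 reads. Replicates of the same condition were closer together than in any other of the 6 genes, and the groups did not overlap. The level was 2.69-fold lower with dox (log2 fold change −1.43, standard error 0.29), with −1.38 in each replicate. A share of 10.1% of the 50-nt windows of Igtp also occurs in Irgm2.

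Irgm1, the most abundant of the 8 genes, had 13.4 and 6.48 CPM with dox and 14.1 and 17.2 CPM without, from 302, 148, 432 and 431 reads. The +dox values were lower than both −dox values, but +dox replicate 1 was close to −dox replicate 1. The log2 fold change was −0.65 (SE 0.28), or 1.57-fold lower, and it rested on replicate 2, with −0.08 in replicate 1 and −1.40 in replicate 2.

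Iigp1, the effector IRG of the list, had 2 and 0 reads with dox and 3 and 1 without. The ratio of its +dox to −dox rate was 0.613, with an exact 95% interval from 0.0555 to 4.28 that covers counting error only, so no direction can be read at this depth. Gbp6 had 1 read, in −dox replicate 1. The 3 reads that a count of 0 allows correspond to 0.133 and 0.131 CPM in the +dox libraries, and 80.9% of the 50-nt windows of Gbp6 also occur in other Gbp genes of the chromosome 5 array, so no fold change is given.

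**Figure D2:**
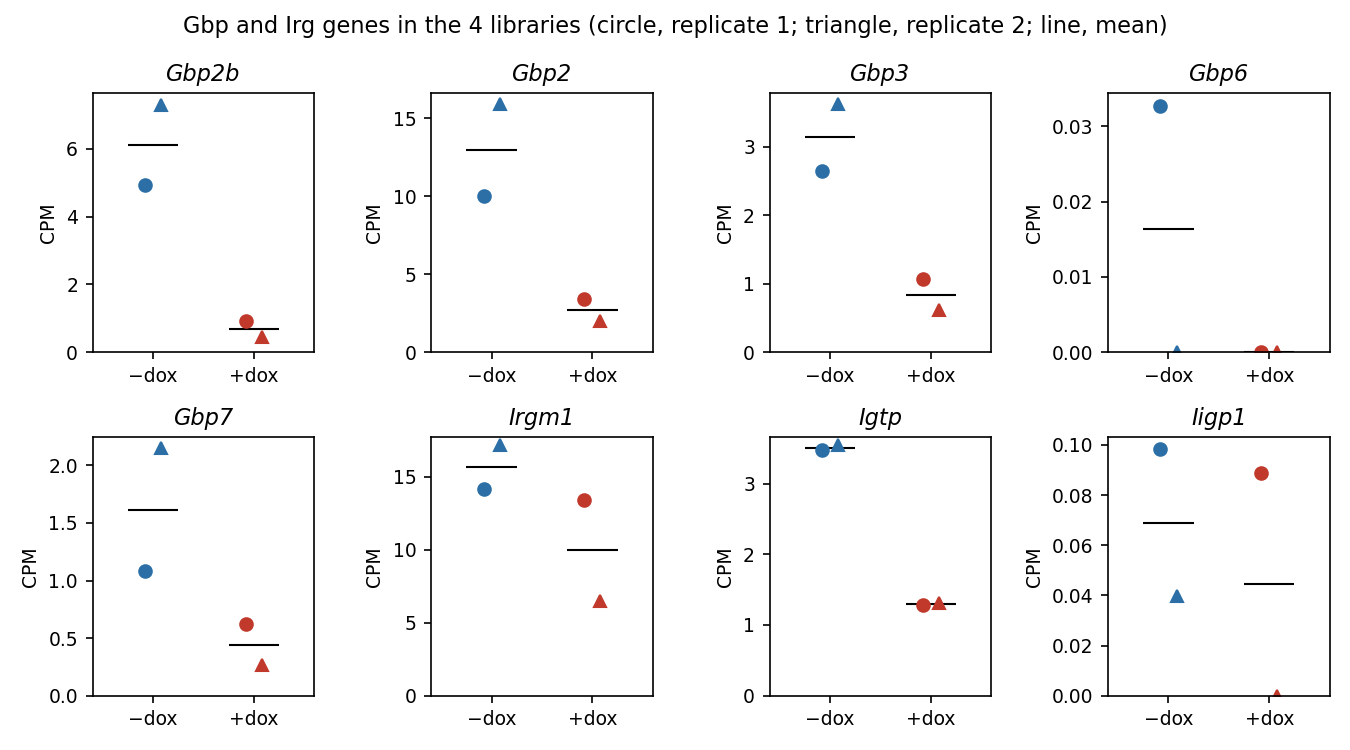
CPM (vertical axes, from 0, a separate scale for each gene) of the 8 genes in the −dox (blue) and +dox (red) libraries, with circles for replicate 1, triangles for replicate 2 and a line at the mean. In 6 genes both +dox points lie below both −dox points, Irgm1 has 1 +dox point at 13.4 CPM close to the −dox points, and Gbp6 and Iigp1 stay below 0.1 CPM in all 4 libraries.

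For 6 of the 8 genes the +dox libraries lay below both −dox libraries, and among all 20044 genes tested 23.7% had groups that did not overlap in this direction. At an adjusted p-value under 0.01, edgeR's quasi-likelihood test called 2 of the 8 lower with dox, Gbp2b and Gbp2, where 0.519% of all tested genes were called lower, and DESeq2 called the same 2 and gave no adjusted p-value for Gbp6, Gbp7 and Iigp1. Both counts follow from how the 8 genes were chosen, and nothing is read from them. In bulk RNA fewer cells of a type and less RNA per cell cannot be told apart.

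The size of the difference varied between replicates in a way that most of these genes shared. In 5 of the 6 genes with enough reads the log2 difference was larger in replicate 2, by 1.17 in Gbp3, 1.32 in Irgm1, 1.40 in Gbp2, 1.52 in Gbp2b and 1.98 in Gbp7, and in Igtp the replicates were equal. Part of this lay between the +dox libraries. There, replicate 2 was below replicate 1 by 0.73 to 1.04 on the log2 scale in those 5 genes and by no such margin in Igtp, which was higher by 0.03. Part lay between the −dox libraries, where replicate 2 was above replicate 1 in all 6 genes, by 0.03 in Igtp and by 0.28 to 0.94 in the other 5.

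Fibroblast markers also differed between the libraries. Of 23 markers, all of them detected, 21 averaged 1 CPM or more, and 20 of these were higher with dox. Of the 23, edgeR called 0 (17 at an unadjusted p under 0.05, beside 3566 of all 20044 genes tested), and DESeq2 called 0. In both replicates 16 of the 21 were higher with dox. Tagln, the 1 lower marker, had a log2 change of 0.16 in replicate 1 and −0.56 in replicate 2. The summed level of these markers was 1522 and 642 CPM in +dox replicates 1 and 2 and 548 and 563 CPM in −dox replicates 1 and 2. Their median log2 fold change was 1.75 in replicate 1 and 0.31 in replicate 2, and 4 chromosome Y genes, which female cells lack, summed to 10.3 and 3.28 CPM with dox and 2.46 and 2.67 CPM without. The part of these markers in the GTPase values was not tested. Without +dox replicate 1 the log2 fold changes were −3.79 in Gbp2b, −2.68 in Gbp2, −2.34 in Gbp3, −2.58 in Gbp7, −1.41 in Igtp and −1.27 in Irgm1. Leaving out +dox replicate 2 instead gave −2.70, −1.92, −1.55, −1.35, −1.44 and −0.22 in the same order.

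Markers of other cell types were also read. Of 13 immune markers in the tables, 1 was at 0 in all libraries, and Ptprc and Tyrobp, which define leukocytes and myeloid cells, had 1 read each, in −dox replicate 1. The list summed to 89.8 and 109 CPM with dox and 73.7 and 65.2 CPM without, most of it from Laptm5 and Cd68. All 4 immune markers averaging 1 CPM or more were higher with dox in both replicates, with log2 fold changes of 0.33 in Laptm5, 0.36 in Cd3e, 0.83 in Cd68 and 0.96 in Itgam. Of this list edgeR called 0 (2 at an unadjusted p under 0.05), and DESeq2 called 1 higher, Cd68 (adjusted p = 0.00165). Endothelial markers had a median log2 fold change of −0.08 over 5 genes. ES cell markers were present in all libraries, with a median log2 fold change of 0.15 over 9 genes, and Pou5f1 had 1148 and 1254 CPM with dox and 949 and 1016 CPM without. Of 10 primitive endoderm markers, edgeR called 3 lower with dox, Gata6 (log2 fold change −2.16), Sox17 (−2.57) and Foxa2 (−2.79). DESeq2 called these and Gata4 (−1.06, adjusted p = 0.0037 in DESeq2). All 4 are transcription factors of that lineage, as is Sox7, which had 0.25. Over the 9 markers averaging 1 CPM or more, 4 were lower and 5 higher with dox, with a median log2 fold change of 0.03. The summed list was 178 and 209 CPM with dox and 182 and 199 CPM without, most of it from Lama1, a laminin chain with 131 and 159 CPM with dox and 117 and 127 CPM without. Their part in the GTPase values was not tested.

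Further Gbp and Irg genes were read from a list of 22 found in the tables, which is not complete. Ifi47, an IRG outside it that was named after its values were seen, had at most 0.279 CPM in a library. Reads were present for 16 of them, and edgeR called 0 in either direction, where 0.599% of all tested genes were called. At an unadjusted p under 0.05 edgeR had 4 of the 16, beside 3566 of all 20044 genes tested, and DESeq2 called 0 of the 16. At least 20 reads were present for 8 of the 16. The others had few reads in each library, at most 3 in Gbp5, Gbp8, Gbp11, Gm4951, Gm12185 and Irgc1. Gvin1 and Gm4070, which share 98.3% of their windows with other genes, were placed at the same locus, and both had 9, 2, 3 and 1. The 16 genes count this locus, and that of Tgtp1 and Tgtp2 below, under 2 symbols each. The 8 genes do so for that of Tgtp1 and Tgtp2. Irgm2, the regulatory IRG next to Igtp, had 0.888 and 0.438 CPM with dox and 1.80 and 3.55 CPM without, from 20, 10, 55 and 89 reads. This gave −2.00 on the log2 scale (adjusted p = 0.0348 in edgeR, standard error 0.45), with −0.96 in replicate 1 and −2.81 in replicate 2.

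Gbp4, a GBP of the chromosome 5 array, had 1.11 and 0.963 CPM with dox and 1.74 and 2.71 CPM without, a log2 fold change of −1.09 that edgeR did not call (standard error 0.36, adjusted p = 0.125). In Gbp4 12.4% of the 50-nt windows occur in other genes of that array. Its neighbour Gbp9 had 0.755 and 0.963 CPM with dox and 0.949 and 1.28 CPM without, and there the groups overlapped. Gbp5, the remaining gene of the chromosome 3 array, had 3 and 1 reads with dox and 3 and 0 without, and Gbp10 had 0 reads in all 4 libraries.

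Tgtp1 and Tgtp2, effector IRGs of chromosome 11, had log2 fold changes of −0.40 and −0.35 with standard errors of 0.49 and 0.48. In the mm9 coordinates both were placed at the same locus, chr11:48798831-48805748 and chr11:48798831-48805756, with 17, 9, 22 and 20 reads against 20, 10, 25 and 22. Windows shared with other genes made up 91.4% and 90.6% of their exons, and the 2 cannot be told apart. Gm12250, an Irg gene between Mrpl22 and Igtp, had 0.711 and 0.832 CPM with dox and 0.295 and 0.359 CPM without, the opposite order to Igtp. From 16, 19, 9 and 9 reads it had a log2 fold change of 1.24 (adjusted p = 0.235 in edgeR, standard error 0.52). Irgq, a more distant IRG, was the most abundant of the list with 32.2 and 27.4 CPM with dox and 24.7 and 22.4 CPM without (log2 fold change 0.34, adjusted p = 0.259 in edgeR). Promoters were matched for 9 of the 22 genes, of which 7 held the ISRE-like and 6 the GAS-like letters, Gm12250 and Irgm2 among both.

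**Figure D3:**
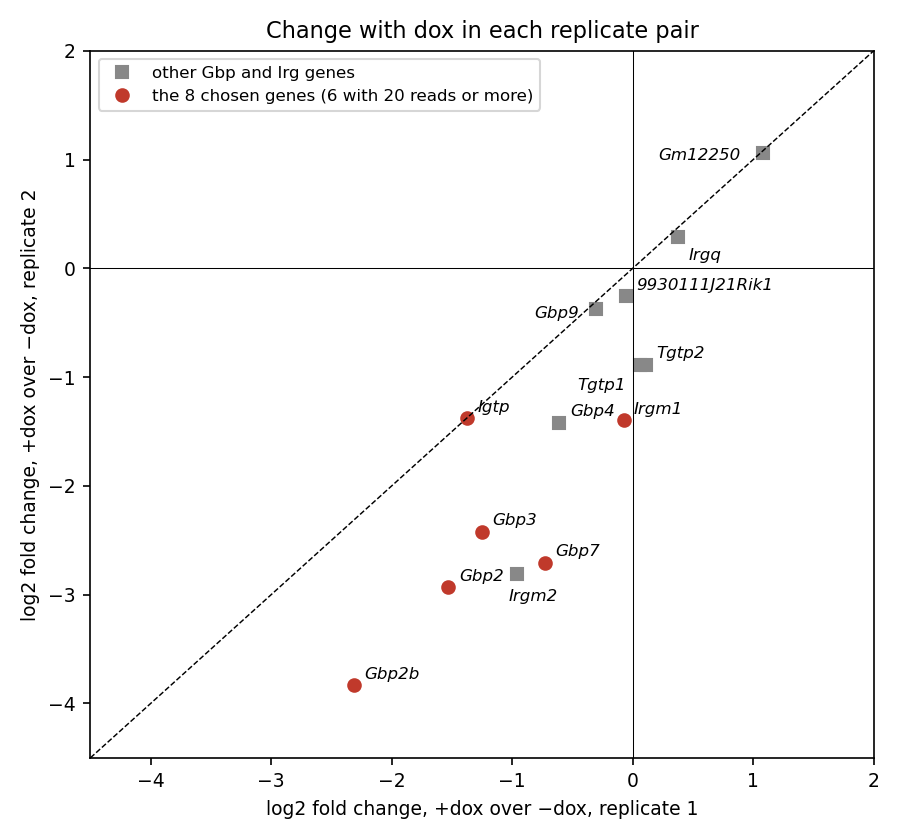
Log2 fold change of +dox over −dox in replicate 1 (horizontal axis) and replicate 2 (vertical axis) for the chosen genes (red circles) and the other Gbp and Irg genes (grey squares) with at least 20 reads, with a dashed line where both are equal. Igtp lies on the line at −1.38 in both replicates, the other 5 chosen genes and Irgm2 and Gbp4 lie below it, and Gm12250 and Irgq lie where both replicates are higher with dox.

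Genes beside or among these GTPases, named after their values were seen, differed in size and direction. Ccbl2, downstream of Gbp2, had a log2 fold change of −0.23 (adjusted p = 0.643 in edgeR), and Mrpl22 and Zfp692, on either side of Igtp and Irgm2, had 0.18 and −0.02 (adjusted p = 0.502 and 0.951 in edgeR). Lrrc8b, beside the chromosome 5 array, had −1.05 (adjusted p = 0.0251 in edgeR). On the side of Irgm1, Trim41 had 0.15 and Trim7, between Trim41 and Irgm1, had 0.82 (adjusted p = 0.498 and 0.110 in edgeR). Psme2b, between Irgm1 and Tgtp1, had −0.72 (adjusted p = 0.0177 in edgeR).

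The interferon pathway around the GTPases was read from lists of ligands, signalling genes, targets and partners. Of 21 interferon genes, 18 had 0 reads in all 4 libraries, Ifng and Ifnb1 among them, and the other 3 had at most 4 reads in a library. A count of 0 allows up to 3 reads of a library.

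Of 21 receptors, kinases, transcription factors and inhibitors of interferon signalling, edgeR called 0 in either direction. At an unadjusted p under 0.05 edgeR had 5, beside 3566 of all 20044 genes tested, and DESeq2 called 2 of the 21 lower. The median log2 fold change was −0.18 over 20 genes averaging 1 CPM or more, beside −0.001 over all 13911 such genes. Among the most abundant of the list, Stat3, Socs3, Jak1 and Tyk2, log2 fold changes ran from −0.40 to 0.18. The 2 genes called by DESeq2, named after their values were seen, were Irf1 and Ptpn6. Irf1, a transcription factor that binds the ISRE, had 49.6 and 49.3 CPM with dox and 67.8 and 88.0 CPM without (log2 fold change −0.65, SE 0.13, adjusted p = 0.0249 in edgeR and 0.0020 in DESeq2). Ptpn6, a phosphatase that limits cytokine signalling, had a log2 fold change of −0.72.

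Among 18 genes of antigen presentation that interferon-γ is known to induce, edgeR called 1 lower with dox, Psmb8, and 0 higher. DESeq2 called 3 lower, Psmb8, H2-K1 and Erap1 (adjusted p = 0.0072 in H2-K1 and 0.0069 in Erap1, with 0.0354 and 0.0314 in edgeR). Psmb8, a catalytic subunit of the immunoproteasome, had 0.577 and 0.657 CPM with dox and 4.68 and 4.34 CPM without. This was a log2 fold change of −2.86 (SE 0.32, adjusted p = 7.37e-04 in edgeR), with −2.86 in replicate 1 and −2.59 in replicate 2. The median of the list was −0.54, and 14 of its 16 genes averaging 1 CPM or more were lower, beside 6978 of all 13911. Among its most abundant genes, Psme1 had −0.45, Tapbp −0.39, H2-K1 −0.60 and H2-D1 −0.20, with adjusted p = 0.085, 0.126, 0.0354 and 0.541 in edgeR.

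Of 32 other interferon-stimulated genes, edgeR called 0 in either direction (10 at an unadjusted p under 0.05, beside 3566 of all 20044 genes tested). DESeq2 called 1 of the 32 lower, Dtx3l. The median log2 fold change was −0.39 over 22 genes averaging 1 CPM or more, of which 17 were lower. Trim25, Ddx58, Bst2 and Parp14 were the most abundant, with 0.07, 0.16, −0.40 and −0.59, none with an adjusted p under 0.01 in edgeR. Of 18 autophagy and inflammasome genes whose products work with these GTPases, edgeR called 0 (4 at an unadjusted p under 0.05, and 0 in DESeq2). Their median was 0.06, and Gabarap, Gabarapl1, Atg16l1 and Atg12, the most abundant, had log2 fold changes from −0.16 to 0.24.

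**Figure D4:**
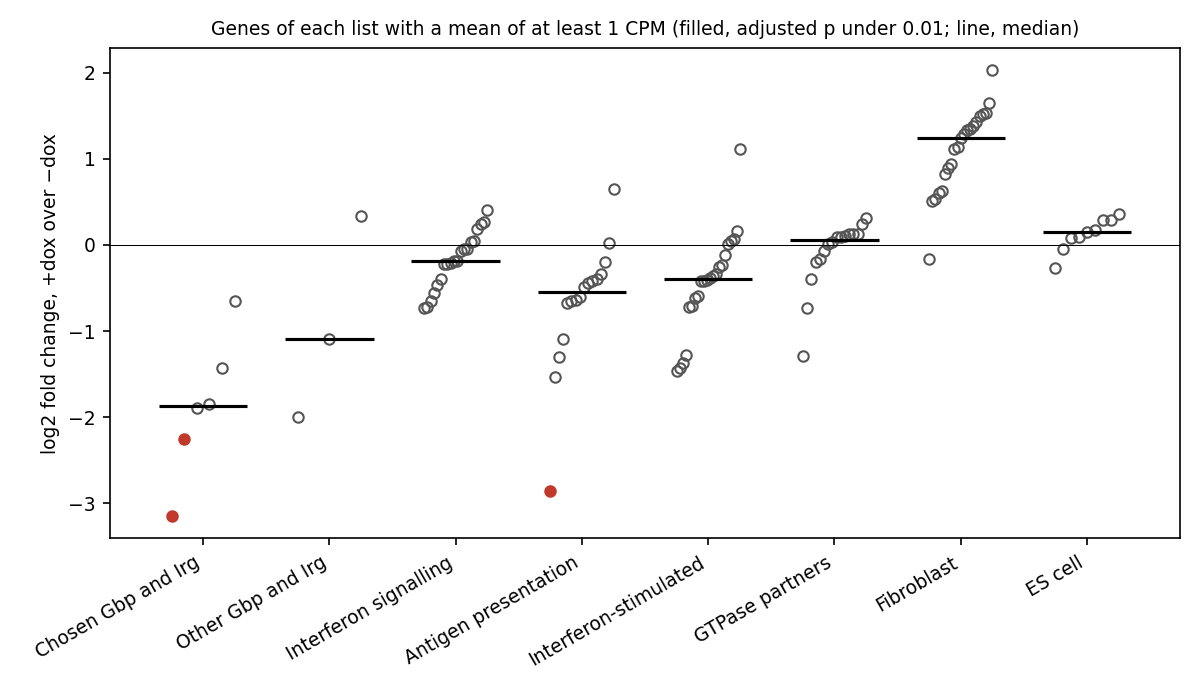
Log2 fold change of +dox over −dox (vertical axis) for genes averaging 1 CPM or more in each list (horizontal axis), filled red where edgeR's adjusted p-value was under 0.01, with a line at each median. The 6 chosen genes lie between −3.15 and −0.65, Psmb8 is the filled point among antigen presentation genes at −2.86, and 20 of 21 fibroblast genes lie above 0.

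Genes whose profile over the 4 libraries was most like the mean of all 8 genes were sought by Euclidean distance of centred log2 CPM. That mean includes Gbp6 and Iigp1, which had few reads. The search covered 13905 others averaging 1 CPM or more. The mean profile was −0.37 and −1.07 in +dox replicates 1 and 2 and 0.61 and 0.84 in −dox replicates 1 and 2. The 5 nearest were Sema3e (distance 0.0887), Dsc2 (0.0988), Car6 (0.136), Oasl2 (0.142) and Epha1 (0.163), of which Oasl2 is an interferon-stimulated gene. Sema3e, a semaphorin, had 8.40 and 5.34 CPM with dox and 17.5 and 21.3 CPM without. Gbp4 ranked 169 and Irgm2 ranked 236 by this distance. With 4 libraries this is a description of likeness only.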

How the data were processed

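The deposited values are raw counts, in a table for each replicate. Per the methods, the authors used cutadapt for trimming, TopHat2 for alignment (mm9) and HOMER for counting unique exonic reads by gene, after PCR duplicates had been taken out. Versions and use of the strand are not given in the sources used here. The tables were joined by symbol, and 547 of 24421 genes had another transcript in the second table. Removal of duplicates and of reads that map to several places lowers counts of near-identical paralogs.

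The 8 genes, the lists and the tests were chosen with earlier results of these data known. The 20044 genes with a read in any of the 4 libraries were tested with edgeR 4.0.16 (R 4.3.3), TMM and the quasi-likelihood test without a replicate block, with Benjamini-Hochberg adjusted p-values called under 0.01, and with DESeq2 1.42.0. Changes within a replicate used a prior count of 2. With 2 libraries per group, p-values measure only the spread between these cultures, and precision was limited by 22899107 to 30206085 reads per library. Named were all 8 genes, the other Gbp and Irg genes with reads, genes of other lists past the threshold and the 4 most abundant of each pathway list, and the 5 nearest profiles. The ChIP-seq and Hi-C samples were not used here.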

Additional observations from a re-analysis of the deposited data

How the results depend on the processing

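The main counts of calls were 120 over all genes (16 higher and 104 lower with dox), 2 of the 8 GTPases, 0 of the other Gbp and Irg genes and 1 of the interferon pathway genes, in that order below. DESeq2 gave 375 (118 higher and 257 lower), 2, 0 and 6, and DESeq2's size factors within edgeR gave 136, 2, 0 and 1. Deviances adjusted for small counts gave 0, 0, 0 and 0, with 3254 genes at an unadjusted p under 0.05. The stricter filter on low counts (filterByExpr) gave 11, 0, 0 and 0, with 6 of the 8 GTPases tested. edgeR with a replicate block gave 786, 4, 1 and 12. The numbers do not establish a pairing, since 2 pairs only were present. Across 13911 genes averaging 1 CPM or more, the log2 differences between the +dox replicates correlated at 0.196 with those between the −dox replicates. Leaving out each library in turn gave 0 to 992, 0 to 6, 0 to 1 and 0 to 14. Calls fell to 0 without −dox replicate 1 and without −dox replicate 2. They rose to 992 (6, 1 and 14) without +dox replicate 1 and to 877 (4, 1 and 8) without +dox replicate 2. The cause was not tested. Of the 23 fibroblast markers, 13 were called under the replicate block.

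The 6 GTPases with at least 20 reads had a lower fitted level with dox in 10 of 10 settings, with log2 fold changes from −3.79 to −2.70 in Gbp2b, −2.68 to −1.88 in Gbp2, −2.34 to −1.55 in Gbp3, −2.58 to −1.28 in Gbp7, −1.44 to −1.41 in Igtp and −1.27 to −0.22 in Irgm1. All settings reuse the libraries by which these genes were chosen, so nothing is read from the shared direction. The direction turned, from few reads, in Tgtp2 without +dox replicate 2 (−0.35 with all libraries, and −0.94 to 0.070 when each library was left out) and in 9930111J21Rik1 without −dox replicate 1 and without +dox replicate 2 (−0.20 with all libraries, and −1.35 to 0.71 when each was left out). Levels per kilobase on total counted reads kept Irgm1 highest (7.16 in −dox cells). Depth limits Gbp6, Iigp1 and Gbp7.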
